A study of Mus musculus with 6 samples.

Results

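Gpr65 and Gpr132 are the 2 proton-sensing G protein-coupled receptors described here, chosen by gene symbol from the 24940 genes of the deposited expression table. Both were found in it and both passed the filter on low values, which kept 11595 genes. In bone marrow-derived macrophages (BMMs), Gpr65 was the more abundant of the pair and fell 11.4-fold when the cells were given RANKL, the cytokine under which such cells turn into osteoclasts. Gpr132 went the other way and rose 31.6-fold, from 0.556 to 17.6 RPKM (RPKM counts reads scaled to transcript length and library depth). The leaf extract of Abeliophyllum distichum (LE), added together with RANKL, left Gpr65 low and Gpr132 high. Gpr132 was lower than with RANKL alone by less than 2-fold, and whether this difference passed the test depended on the settings.

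Proton-sensing receptors sit in the plasma membrane and become active as the fluid outside the cell turns acid, when histidines on their outer face take up protons. Gpr65, also called TDAG8, couples mainly to Gs and raises cyclic AMP, and it is known from macrophages and lymphocytes. Gpr132 belongs to the same family by sequence, responds only weakly to acid and is also activated by oxidised fatty acids and linked to lysophospholipids. Gpr4, of the same family and best known from the endothelium, couples to Gs. Osteoclasts secrete acid onto bone while resorbing it, so these cells work next to an acid space.

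The 6 libraries come from osteoclast precursors of mouse marrow, with 2 libraries per condition. Cells were kept for 3 days in M-CSF at 30 ng/mL without further additions (-R), together with RANKL at 100 ng/mL (+R), or together with that RANKL dose plus LE at 10 μg/mL (R+LE), so M-CSF was shared by all cultures. By the labels the donors were C57BL/6 mice of 6 to 8 weeks, and by the methods of the study male ICR mice of 6 to 7 weeks, and neither describes a genotype change in them. DMSO is named beside LE for another experiment of the study, and whether the -R and +R cultures received it is not given in the sources used here. LE is a methanol extract of leaves and so a mixture of compounds, and BMMs are a primary culture, not a cloned line. Nothing in the labels says whether the 2 libraries of a condition came from separate cultures or animals, so the p-values measure the spread between these libraries, which may be technical.

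The depth recovered from the values was between 29390799 and 34846549 mapped reads per library. All 7 macrophage markers were detected in every library, with a summed level between 6458 and 7073 RPKM in -R, between 2607 and 3351 in +R and between 3632 and 4046 in R+LE. Lyz2 led this sum, with means of 5317, 2132 and 3060 RPKM in the same order. By their means Adgre1, Fcgr1 and Mertk moved as the sum did, but the other members did not. Itgam averaged 70.5, 90.2 and 104.2 RPKM, and so was lowest without RANKL. Csf1r and Cd68 averaged 206.0 and 444.9 RPKM with RANKL alone, and less with LE added, at 185.2 and 336.5 RPKM. The summed level of 8 osteoclast markers was 43.2 to 44.8 RPKM in -R, 1866 to 2123 in +R and 329.2 to 380.0 in R+LE. A gene was called at a Benjamini-Hochberg adjusted p-value below 0.05 in limma and a change of at least 2-fold on the log2(RPKM + 0.5) scale. Permuting 2 libraries against 2 exactly, two-sided, reaches 0.333 at the lowest, which is why limma, pooling the spread over genes, was used for the calls. These are bulk samples, in which fewer cells of a type and less RNA per cell cannot be told apart.

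Gpr65 lies on chromosome 12 of mm10 from 98268635 to 98276722 on the forward strand, and its transcript NM_008152 is 2143 nt long. Gpr132 lies on the same chromosome from 112850876 to 112860916 on the reverse strand, with transcript NM_019925 of 2434 nt. The stretch just upstream of each transcript start is shown because the genes changed in opposite directions, and it was read from RefSeq promoter windows on GRCm38.p6, the same assembly as mm10. Capitals mark a match to any of the 4 motifs searched on both strands.
Gpr65, chr12:98268385-98268634, forward strand: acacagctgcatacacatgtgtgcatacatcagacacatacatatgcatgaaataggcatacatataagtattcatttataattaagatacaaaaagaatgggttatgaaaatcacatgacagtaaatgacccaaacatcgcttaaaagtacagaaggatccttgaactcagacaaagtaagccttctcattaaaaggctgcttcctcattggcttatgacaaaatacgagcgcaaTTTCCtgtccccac
Gpr132, chr12:112860953-112861166, reverse strand: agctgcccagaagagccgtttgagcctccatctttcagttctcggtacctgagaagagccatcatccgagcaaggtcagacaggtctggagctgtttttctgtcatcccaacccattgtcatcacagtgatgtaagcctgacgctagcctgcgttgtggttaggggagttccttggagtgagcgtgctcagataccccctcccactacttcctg
The Gpr65 stretch runs from base -250 to -1 relative to the start. The Gpr132 stretch runs from -250 to -37, because the last 36 bases belong to an exon in the GENCODE M21 annotation. That annotation holds 2 transcripts of Gpr132 and extends the gene to 112868228, so this stretch lies inside the longer gene model. The sequence upstream of that farther end was not searched. The stretches differed in base composition, with 36.8% G and C upstream of Gpr65 and 53.7% upstream of Gpr132, against a median of 52.4% over all 32817 windows. The NFAT core GGAAA was found 1 time upstream of Gpr65, on the reverse strand from -14 to -10, and not upstream of Gpr132. This short motif occurs in 55.6% of all windows of 250 bases. Neither window of 250 bases held the cyclic AMP response element TGACGTCA, which 1.55% of windows hold, the AP-1 motif TGANTCA, which 6.75% hold, or the PU.1 motif GAGGAAGT, which 2.44% hold. A match is only a match of letters, and its absence says nothing of a factor.

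Gpr65 was measured at 18.8 and 19.4 RPKM in the -R libraries, at 1.64 and 1.70 RPKM in the +R libraries and at 1.97 and 2.35 RPKM in the R+LE libraries. Both -R libraries lay far above all 4 libraries that received RANKL, with 1184 and 1449 reads against 108 to 153 reads. The -R libraries averaged 19.1 ± 0.428 RPKM, the +R libraries 1.67 ± 0.042 RPKM and the R+LE libraries 2.16 ± 0.268 RPKM (SD, n = 2 each). From -R to +R the difference in log2(RPKM + 0.5) was -3.17 (standard error 0.14, adjusted p = 1.58e-10 in limma), which placed Gpr65 as number 59 among the 11595 genes when ordered from the largest fall. Of all genes tested, 8.92% were called lower in +R. In the GENCODE M21 annotation 511 exonic bases of Gpr65 are shared with Gm47566, a gene on the opposite strand, and since the counting ignored strand the reads of the pair were not separated.

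Gpr132 was measured at 0.475 and 0.637 RPKM in -R, at 19.1 and 16.1 RPKM in +R and then 10.9 and 13.05 RPKM in R+LE. The order was the reverse of that of Gpr65, with both -R libraries lowest, at 34 and 54 reads, and both +R libraries highest, at 1427 and 1202 reads. The -R libraries averaged 0.556 ± 0.115 RPKM, the +R libraries 17.6 ± 2.13 RPKM and the R+LE libraries 11.97 ± 1.52 RPKM (SD, n = 2 each). The difference from -R to +R was 4.10 on the log2(RPKM + 0.5) scale (standard error 0.15, adjusted p = 2.01e-11 in limma), number 29 from the top of the same 11595 genes. Of all genes tested, 6.58% were called higher in +R. Because the -R level was close to the pseudocount, this scale understates the change, and the difference was 4.76 with a pseudocount of 0.1 and 3.58 with a pseudocount of 1.

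**Figure D1:**
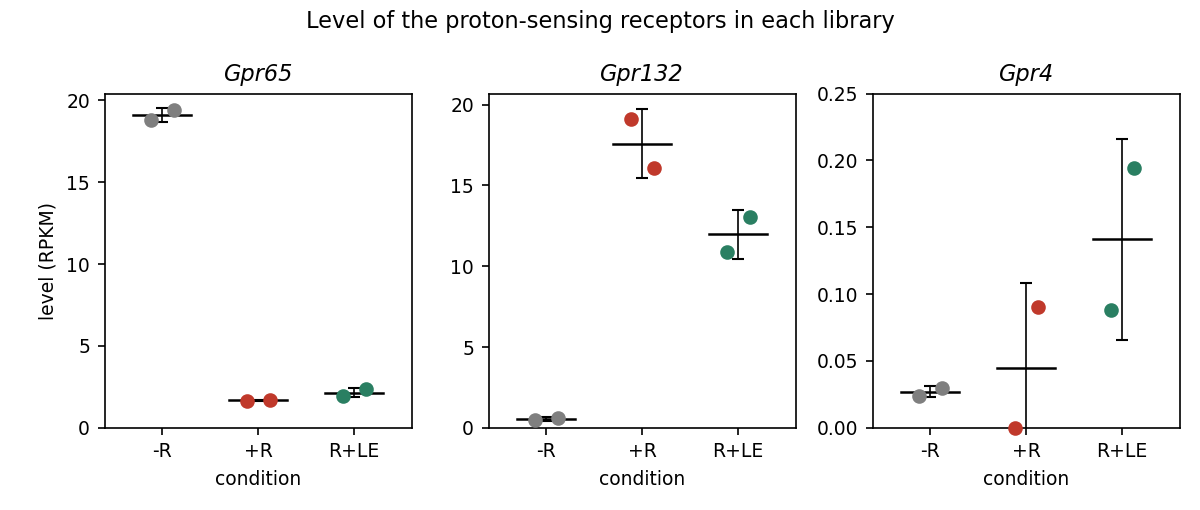
Level of Gpr65, Gpr132 and Gpr4 in RPKM (vertical axis, from 0, with its own range for each gene) in the -R, +R and R+LE libraries. Points are libraries, horizontal bars the mean of 2 libraries and error bars the SD. Gpr65 was highest in -R at 18.8 and 19.4 RPKM, Gpr132 was highest in +R, and Gpr4 stayed at or below 0.194 RPKM.

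Gpr4, chosen with earlier results of these data known, was measured beside the pair. It was barely detected, with 2 and 3 reads without RANKL, 0 and 8 reads with it and 8 and 17 reads once LE was added, and it did not pass the filter.

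Since RPKM is a level per transcript length, Gpr65 and Gpr132 were also compared with each other within each library. The higher of the pair was Gpr65 in both -R libraries and Gpr132 in all 4 libraries with RANKL. Gpr65 exceeded Gpr132 by 39.6-fold and 30.5-fold in -R, while Gpr132 exceeded Gpr65 by 11.6-fold and 9.45-fold in +R and by 5.54-fold and 5.56-fold in R+LE. The log2 ratio of Gpr65 to Gpr132, with 0.5 added to both levels, averaged 4.22 ± 0.125 for -R, -3.05 ± 0.199 for +R and -2.23 ± 0.031 for R+LE (n = 2 libraries, SD), without overlap between any pair of conditions. Each of the 3 exact two-sided permutation tests of this ratio gave p = 0.333, the smallest value the design allows.

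The comparison of R+LE with +R sets cultures given LE together with RANKL for 3 days against cultures given RANKL without LE. Gpr65 did not pass the test, with a difference of 0.29 in log2(RPKM + 0.5) and a 95% interval from -0.02 to 0.59 (adjusted p = 0.255 in limma). Both R+LE libraries of Gpr65 lay above both +R libraries, but the gap was small beside the distance to -R. For Gpr132 both R+LE libraries lay below both +R libraries. A separation of 2 libraries from 2 has p = 0.333 in an exact two-sided permutation test, so for either gene it is no support by itself. The level of Gpr132 fell by 0.54 on the same scale (95% interval from -0.87 to -0.21, adjusted p = 0.0333 in limma), which is less than 2-fold. An adjusted p below 0.05 with a lower level in R+LE was reached by 6.86% of all genes tested, and a call at 2-fold, in either direction, by 3.23%. The limma result of Gpr132 with LE was not stable. The adjusted p was 0.273 without +R replicate 1, 0.156 without R+LE replicate 1, 0.0591 and 0.0596 without the first or the second -R library, and it ranged from 0.00397 to 0.273 over the 16 alternatives, while the difference stayed negative in all of them.

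**Figure D2:**
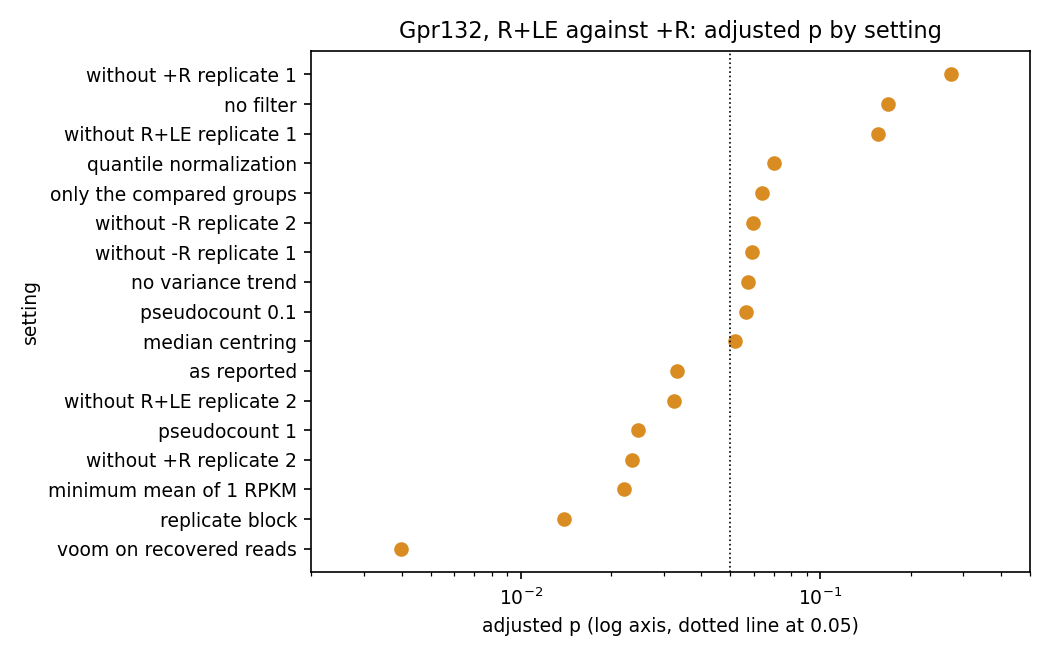
Adjusted p-value of Gpr132 in R+LE against +R (horizontal log axis) under each setting (vertical axis), with a dotted line at 0.05. Points run from 0.00397 with voom on recovered reads to 0.273 without +R replicate 1, and the value as reported is 0.0333.

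Between R+LE and -R the pair again changed in opposite directions. Gpr65 was 8.86-fold lower in R+LE than in -R, a difference of -2.89 in log2(RPKM + 0.5) (adjusted p = 9.65e-10 in limma), and 6.36% of all genes were called lower in this comparison. Gpr132 was 21.5-fold higher, a difference of 3.56 (adjusted p = 2.28e-10 in limma), and 3.92% of all genes were called higher. Measured on the log2(RPKM + 0.5) scale, the R+LE level had gone back toward -R by 9.02% of the RANKL change for Gpr65 and by 13.1% for Gpr132, whereas on the RPKM scale it had gone back by 2.77% for Gpr65 and by 33.0% for Gpr132. On the log2 scale the R+LE libraries taken apart gave 5.77% and 12.3% for Gpr65, and 16.2% and 10.1% for Gpr132. The 8 osteoclast markers were called higher with RANKL without exception, with a median difference in log2(RPKM + 0.5) of 5.15. With LE all 8 were called lower than in +R, with a median difference of -2.15. Over all genes tested, 6.58% were called higher with RANKL and 1.78% lower with LE. The 3 comparisons share libraries, so a chance value in +R enters both the rise and the return.

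**Figure D3:**
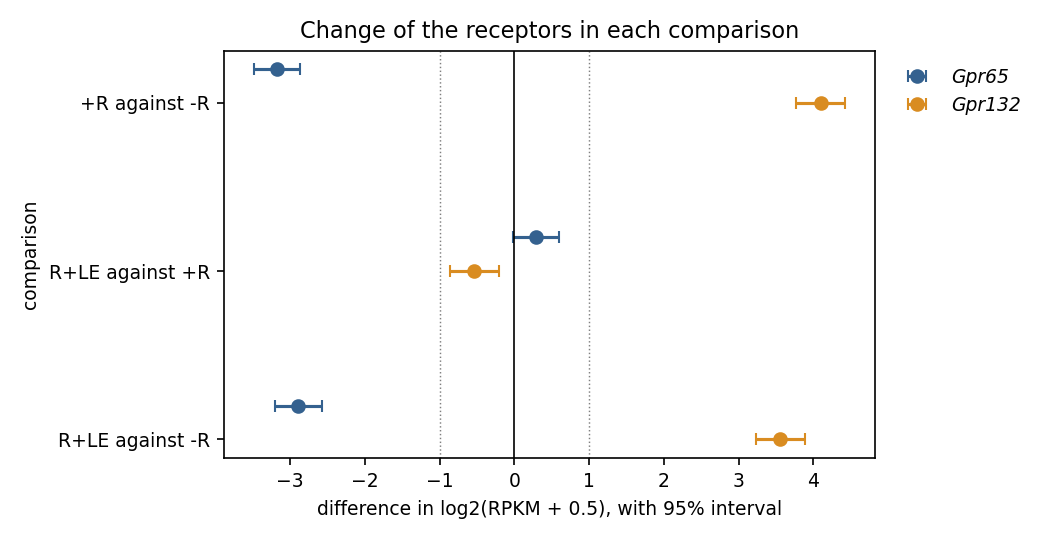
Difference in log2(RPKM + 0.5) (horizontal axis) for Gpr65 and Gpr132 in each of the 3 comparisons (vertical axis), with 95% intervals from limma and dotted lines at a 2-fold change. Gpr65 lies at -3.17 and Gpr132 at 4.10 for +R against -R, while for R+LE against +R the interval of Gpr65 crosses 0.

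Because lymphocytes and granulocytes also express these receptors, markers of other cell types were measured in the same libraries. The summed level of 5 B cell markers was 1.57 to 1.96 RPKM in -R, 0.099 to 0.105 in +R and 0.048 to 0.124 in R+LE. The summed level of 7 neutrophil markers was 15.5 to 17.3 RPKM in -R, 0.716 to 0.816 in +R and 0.537 to 2.53 in R+LE, led by S100a8, whereas the defining marker Ly6g stayed at or below 0.334 RPKM. The 5 NK cell markers summed to 0.193 to 0.265 RPKM in -R and to at most 0.05 in the libraries with RANKL, and the 7 stromal markers to 15.3 to 16.6 RPKM in -R, against 10.2 to 14.2 in +R and 8.39 to 9.79 in R+LE. These 4 sums were higher in -R than in every library with RANKL, as Gpr65 was, and their part in its level was not tested. Some members did not go with their sums. Col1a2 overlapped between -R (6.24 and 5.59 RPKM) and +R (4.73 and 5.89 RPKM), and Pdgfrb averaged 0.507 and 0.514 RPKM there. The NK cell sum was led by Klrk1, at or below 0.217 RPKM. Klrb1c, Elane and Bglap had no reads in -R and averaged 0.025, 0.107 and 0.0345 RPKM in +R. The 7 T cell markers summed to at most 1.75 RPKM in any library, with Cd3e at 0 in all 6. Their members did not move together. Cd4 averaged 0.616 RPKM without RANKL, 0.191 with it and 0.095 with LE added, and Cd3d averaged 0.142, 0.0865 and 0.0985 RPKM in the same order, whereas Cd5 was highest in +R, as Gpr132 was, at 0.132 and 0.126 RPKM in -R, 1.11 and 1.22 RPKM in +R and then 0.308 and 0.415 RPKM in R+LE. The 5 dendritic cell markers summed to 3.11 to 3.61 RPKM in -R, 5.21 to 7.79 in +R and 3.12 to 3.72 in R+LE, and this sum was led by Itgax, with means of 2.39, 5.53 and 3.14 RPKM in that order. Zbtb46 was also highest in +R, while Flt3, Cd209a and Xcr1 had higher means in -R (0.244, 0.387 and 0.251 RPKM) than in +R (0.009, 0.022 and 0.117 RPKM). Their part in the level of Gpr132 was not tested either. The 5 mast cell and basophil markers summed to at most 0.082 RPKM, with Cpa3, Ms4a2, Mcpt4 and Cma1 at 0 throughout.

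Of the 4 genes next to the receptors in the genome, Kcnk10 did not pass the filter and so was not tested. The other 3 were not called with RANKL in limma, although each had an adjusted p-value below 0.05. Of all genes tested, 15.5% were called with RANKL. An adjusted p-value below 0.05 was reached with a higher level by 23.9% and with a lower level by 21.5%. The nearest gene to Gpr65 in the table is Galc, 9176 bp away, which encodes the lysosomal galactosylceramidase that breaks down psychosine, a lipid proposed as a ligand of Gpr65. Galc was measured at 8.44 and 11.1 RPKM in -R, 4.72 and 4.83 RPKM in +R and then 5.26 and 4.32 RPKM in R+LE, and its fall with RANKL was just under the limit for a call (difference in log2(RPKM + 0.5) of -0.95, adjusted p = 0.000164 in limma). On the far side Kcnk10, a potassium channel gene, was at or below 0.008 RPKM. Around Gpr132 the nearest genes are Cdca4, at 14.3 to 15.6 RPKM in -R and 17.9 to 23.6 in the other libraries, and the Notch ligand gene Jag2. Jag2 was measured at 0.473 and 0.456 RPKM in -R, 1.44 and 1.37 RPKM in +R and then 0.598 and 1.39 RPKM in R+LE. Its rise with RANKL was also just under the limit for a call (difference in log2(RPKM + 0.5) of 0.98, adjusted p = 0.00399 in limma). The RefSeq gene Gm30461 overlaps Gpr132 and was not analysed here.

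By the smallest root mean square difference between centred log2(RPKM + 0.5) profiles over the 6 libraries, the genes most like Gpr65 were Ifit3 (0.09), Ifi204 (0.10), Folr2 (0.15), Ifit3b (0.15) and Tmem8 (0.15). Ifit3, Ifi204 and Ifit3b are interferon-stimulated genes, and Folr2 is a folate receptor gene of macrophages. Ifit3 was measured at 22.8 and 24.0 RPKM in -R, 2.14 and 2.43 RPKM in +R and then 2.89 and 3.56 RPKM in R+LE. Ifit3 and Ifit3b are close paralogs between which the counting could have split reads. The genes most like Gpr132 were Vegfc (0.17), a lymphatic growth factor gene, Traf1 (0.22), an adaptor of TNF receptor signalling, Mir7225 (0.23), Cavin3 (0.23), a caveolar coat gene, and Clec4a4 (0.28), a lectin receptor gene. Vegfc was measured at 0.109 and 0.138 RPKM in -R, 15.8 and 10.5 RPKM in +R and then 7.48 and 8.37 RPKM in R+LE. Mir7225 rests on at most 11 reads in any library over an entry of 53 nt. These distances were taken over 6 libraries that share their conditions, and they describe likeness of level only.

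The signalling machinery around the receptors was followed in 8 further lists, chosen with earlier results of these data known, which held 127 genes apart from the family, of which 81 passed the filter. Rgs2 stood in 2 of the lists and was counted 1 time in these totals. Of all genes tested, 23.9% had an adjusted p-value below 0.05 and a higher level in +R and 21.5% a lower level. With RANKL 28 of the 81 were called, or 34.6%, 8 higher and 20 lower, against 15.5% of all genes tested. Over all genes 6.58% were called higher and 8.92% lower, and these shares are the background for each list below. With LE 7 were called, or 8.64%, against 3.23% of all genes tested. Of the 7, 3 were higher and 4 lower, and over all genes 1.46% were called higher and 1.78% lower. At an adjusted p-value below 0.05 without the fold limit, 5.19% of all genes were higher with LE. Between R+LE and -R 19 were called, or 23.5%, against 10.3%. Among other proteins that respond to protons, 11 of 14 channel genes did not pass the filter, and Asic2, Asic4, Asic5 and Trpv1 were among those with no read in any library. Trpv4, a calcium channel of the plasma membrane, was called lower with RANKL, from 4.85 and 5.95 RPKM in -R to 0.812 and 0.477 in +R, and at 1.76 and 1.77 RPKM in R+LE it only just reached the 2-fold limit for a call with LE, compared with +R (adjusted p = 0.00212 in limma). Tmem206, the gene of a proton-activated chloride channel, was at 13.7 and 14.6 RPKM in -R and 9.06 and 7.89 in +R. It passed the test lower with RANKL (adjusted p = 0.000643 in limma) but was not called, being under 2-fold. The proton channel gene Hvcn1, at 5.29 to 7.19 RPKM over all libraries, did not pass the test in any comparison.

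Of the Gs and cyclic AMP list, 15 of 23 genes were tested, and with RANKL 4 passed the test higher and 6 lower, of which 1 was past 2-fold, with a median difference in log2(RPKM + 0.5) of -0.18 against 0.05 over all genes. Adcy3, an adenylyl cyclase that makes cyclic AMP, was that gene, at 3.90 and 3.52 RPKM in -R, 17.5 and 17.3 RPKM in +R and then 4.75 and 4.90 RPKM in R+LE. It was called lower with LE (difference of -1.75, adjusted p = 8.32e-07 in limma) and its difference between R+LE and -R, of 0.34 on the same scale, did not pass the test (adjusted p = 0.0658 in limma). Adcy7, another cyclase, was at 41.8 and 43.7 RPKM in -R and between 32.3 and 34.2 RPKM in the other libraries, and Gnas, which encodes the Gs alpha subunit, ranged from 148.7 to 198.0 RPKM without passing the test in any comparison. Prkar2b, a regulatory subunit of protein kinase A, was called higher with LE, at 4.38 and 4.81 RPKM in +R and 11.0 and 8.77 in R+LE.

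Of the phosphodiesterases, which break down cyclic AMP, 9 of 16 genes were tested, and with RANKL 2 were called higher and 2 lower. Pde2a was measured at 5.93 and 6.57 RPKM in -R, 63.0 and 57.6 RPKM in +R and then 51.4 and 47.6 RPKM in R+LE, a difference of 3.17 in log2(RPKM + 0.5) with RANKL. Pde4b was the other gene called higher (1.44), while Pde7b (-1.94) and Pde1b (-1.14) were called lower. With LE 0 of the 9 had an adjusted p-value below 0.05 in limma and 1 had an unadjusted p-value below 0.05, which 23.3% of all genes had.

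Genes that CREB, the transcription factor downstream of cyclic AMP, is known to switch on passed the test lower with RANKL in 7 of 10 tested cases and higher in 2, of which 5 and 1 were past 2-fold and so called, with a median difference in log2(RPKM + 0.5) of -1.31. Dusp1, a MAP kinase phosphatase gene, was measured at 53.9 and 52.1 RPKM in -R, 6.81 and 5.65 RPKM in +R and then 9.16 and 8.91 RPKM in R+LE. Rgs2 (-2.44), the nuclear receptor gene Nr4a1 (-2.13), the extracellular matrix gene Thbs1 (-1.84) and Fosb were also called lower. Fosb had only 2 reads in each +R library against 154 and 180 in -R. Junb, an AP-1 subunit gene, was called higher (1.29), and Fos, at 66.0 to 87.5 RPKM over all libraries, did not pass the test. These genes also answer to other signals. With LE 2 of the 10 passed the test higher and 1 lower, all under 2-fold, and 5 had an unadjusted p-value below 0.05. The shares over all genes tested were 5.19% higher, 6.86% lower and 23.3% with an unadjusted p-value below 0.05.

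Among the alpha subunits of the other G protein classes and their effectors, 16 of 19 genes were tested. With RANKL Gna12 (-1.75) and Gna15 (-1.25) were called lower, and Plcb4, a phospholipase C that acts below Gq, was called higher, from 0.222 and 0.428 RPKM in -R to 5.53 and 4.69 in +R. With LE Plcb4 was the gene called, lower at 1.27 and 1.10 RPKM. Gna13, through which Gpr132 has been reported to signal, ranged from 19.3 to 24.7 RPKM and did not pass the test in any comparison.

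Of the 16 receptor kinases, arrestins and RGS proteins, which silence active receptors or G proteins, all were tested, and with RANKL 2 were called higher and 5 lower. Grk3, a receptor kinase, rose from 0.978 and 1.10 RPKM in -R to 21.1 and 20.3 in +R and was called lower with LE, at 8.84 and 9.43 RPKM. Rgs16 (1.09) was the other gene called higher. Rgs1 showed the largest fall of the 8 lists on the log2(RPKM + 0.5) scale (-5.27), from 66.7 and 72.6 RPKM in -R to 1.80 and 0.935 in +R, and stayed at 2.42 and 2.09 in R+LE. Rgs2, Rgs18 (-2.17), Arrb2 (-1.24) and Grk5 (-1.06) were the others called lower.

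Of the other receptors that signal through Gs, 6 of 11 were tested, and with RANKL 3 were called lower and 1 higher. The prostaglandin receptor genes Ptger2 (-2.05), Ptgir (-2.06) and Ptger4 (-1.06) were called lower, as Gpr65 was. Ptgir, at 4.67 and 4.41 RPKM in -R and 0.646 and 0.782 in +R, was called higher with LE, at 3.396 and 3.65 RPKM. Calcr, the calcitonin receptor of osteoclasts, had no reads at all without RANKL. It stood at 6.55 and 5.82 RPKM in +R and 1.33 and 0.799 in R+LE, and was called higher with RANKL and lower with LE. Of the receptors for lysophospholipids and PAF, 7 of 15 were tested, and with RANKL 3 were called lower. S1pr1, a sphingosine 1-phosphate receptor gene, was at 41.1 and 42.0 RPKM in -R, 1.71 and 1.77 RPKM in +R and then 4.83 and 3.20 RPKM in R+LE, and Lpar6 (-1.78) and S1pr2 (-1.54) were the other genes called lower. With LE 3 of these 7 passed the test higher, S1pr1 among them, and 1 lower, all under 2-fold, and 5 had an unadjusted p-value below 0.05. Over all genes tested, 5.19% passed higher, 6.86% passed lower and 23.3% had an unadjusted p-value below 0.05.

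**Figure D4:**
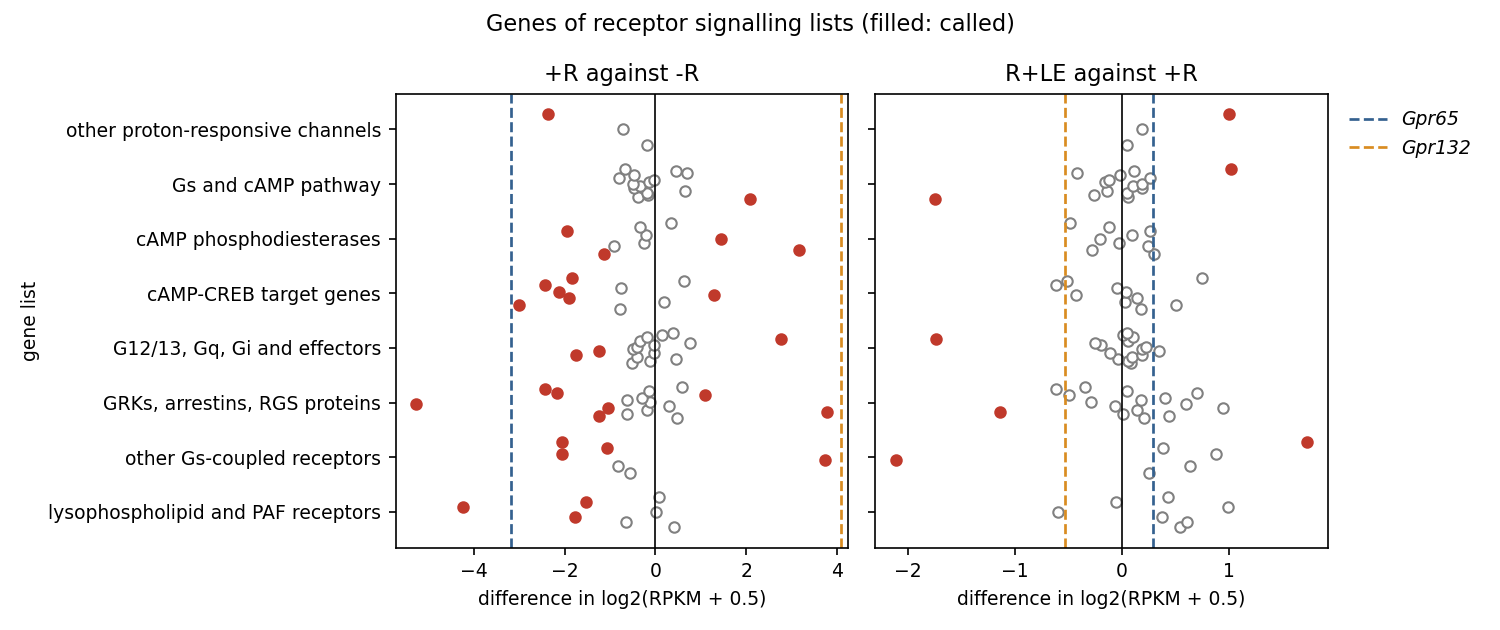
Difference in log2(RPKM + 0.5) (horizontal axis) of each tested gene in the 8 lists (vertical axis), for +R against -R on the left and R+LE against +R on the right. Filled points were called, open points were not, and dashed lines mark Gpr65 and Gpr132. With RANKL 28 of 81 genes are filled and with LE 7.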

How the data were processed

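RNA from 6 libraries of mouse bone marrow-derived macrophages was sequenced by the authors as paired ends of 100 bp. The authors deposited RPKM values made with HOMER on mm10, counting exons on both strands with 1 transcript kept per gene, under column titles that say FPKM. The methods of the study name TopHat as the aligner and the submitters' processing notes name HISAT2, with versions not given in the sources used here. The transcript lengths in the deposited table are in bases (nt). Of the gene symbols, 26 had been turned into dates and were restored from RefSeq identifiers. All 6 columns of values were used, each matched to its sample by title.

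The RPKM values were not treated as counts. The values log2(RPKM + 0.5) were fitted by group over all 6 libraries in limma (version 3.58.1, R 4.3.3) with a trended empirical Bayes step. Genes averaging 0.5 RPKM or more entered the fit (11595), and p-values were adjusted over all of them by Benjamini-Hochberg. Python 3.11.15 (pandas 2.3.3, numpy 2.4.6, matplotlib 3.10.9) made the tables and figures. Dividing RPKM by the worth of 1 read gave back whole reads, and 100% of the values checked in each library lay within 0.1 of a whole read. For Gpr132, 1 read was worth 0.0118 to 0.0140 RPKM. The fit was checked on simulated data.

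The 2 members and the gene lists were chosen with earlier results of these data known. Some values are not reported here. The genes named are the members, Gpr4, genes of the lists where the list is described, the 5 genes most like each member and the nearest genes. Alternatives changed the pseudocount (0.1 or 1), the filter (none, or a mean of 1 RPKM), the scaling (median centring or quantiles) or the model (untrended variance, compared groups alone, replicate block, voom on recovered reads), or left out a library. The qRT-PCR, immunoblot, reporter and animal experiments of the study were not analysed here.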

Additional observations from a re-analysis of the deposited data

How the results depend on the processing

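The opposite changes of Gpr65 and Gpr132 with RANKL, and between R+LE and -R, kept their direction under all 16 alternatives. In each that kept all 6 libraries, their adjusted p stayed below 0.05 in limma. With RANKL the differences ran from -3.51 to -2.91 for Gpr65 and from 3.58 to 4.96 for Gpr132. The larger change of each came from voom on recovered reads and the smaller from a pseudocount of 1, neither on the log2(RPKM + 0.5) scale. On that scale they ran from -3.20 to -3.15 and from 3.98 to 4.22 with a library left out. With LE the difference of Gpr65 did not pass in any alternative with all 6 libraries (0.24 to 0.36, adjusted p from 0.154 to 0.434 in limma). It was 0.18 to 0.39 with a library left out. The fall of Gpr132 with LE lost its adjusted p below 0.05 with median centring (-0.49), with no filter, no variance trend or only the compared groups (-0.54 in each), with a pseudocount of 0.1 (-0.55) and with quantile normalization (-0.48), and ranged from -0.66 to -0.41 with a library left out. Without a -R library the difference is the same by construction, and otherwise the cause was not tested. The change in the log2 ratio of Gpr65 to Gpr132 depended on the pseudocount, at -8.20 with 0.1 and -6.49 with 1 for RANKL, and -7.30 and -5.73 for R+LE against -R, against -7.27 and -6.45 as reported. Counts of called genes, in all and in the lists, stayed within 1.5 times.

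The replicate numbers were not shown to pair the libraries, since the correlations of deviations between conditions were -0.05, 0.25 and 0.11. With the replicate block the adjusted p of Gpr132 with LE was 0.0139 in limma, 1801, 389 and 1200 genes were called in the 3 comparisons against 1797, 375 and 1192, and no call of Gpr65 or Gpr132 changed. With 2 libraries a condition, small changes such as that of Gpr65 with LE cannot be resolved at this depth of replication.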
